A study of Mus musculus with 6 samples.

Results

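Pyruvate made by glycolysis enters the mitochondrial matrix through the mitochondrial pyruvate carrier, a pair of inner membrane proteins encoded by Mpc1 and Mpc2. The pyruvate dehydrogenase complex then turns it into acetyl-CoA, and kinases (PDKs) switch that complex off by phosphorylating its E1 alpha subunit while phosphatases (PDPs) switch it back on. Cumulus granulosa cells surround the oocyte and are known to supply it with pyruvate, which the oocyte itself burns in place of glucose. The 9 genes described here were chosen by name and by function: the carrier genes Mpc1 and Mpc2, the E1 subunit genes Pdha1 and Pdhb, the E2 core gene Dlat, the kinase genes Pdk1, Pdk2 and Pdk3, and the phosphatase gene Pdp1. Earlier results of these data were known when the 9 were chosen. All 9 were found among the 24982 rows of the authors' deposited table, and all 9 had an adjusted p-value, as did 14835 rows in all.

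Poly(A) transcripts of cumulus granulosa cells of outbred Kun-Ming mice were sequenced in 6 libraries, 3 of control cells and 3 whose treatment label is Atg5-KD, for a knockdown of Atg5. The titles of these last libraries read ko, as for a knockout, which conflicts with the treatment label, and Atg5-KD is used here only as the name of the libraries so labelled. The protocol text describes transfection of short hairpin RNAs against Atg5, a gene needed to build autophagosomes. It stands on every sample alike, and the treatment of the control cells, the age of the mice and any pooling are not given in the sources used here. The series title sets the comparison in a study of autophagy, citrate and oocyte maturation, and the question it addresses for these genes is whether transcripts of the route from pyruvate to acetyl-CoA, the precursor of citrate, differ between the groups. The table holds the authors' own comparison and no values per library, so neither the spread of single libraries nor the overlap of the groups can be shown. Nothing in the labels says that libraries came from separate cultures or animals, so p-values cover only the spread among these libraries, possibly a technical one.

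Atg5 itself had a log2 fold change of -0.06 ± 0.14 (SE) as the authors' deposited table has it (Wald adjusted p = 0.822), with a 95% interval from -0.34 to 0.21. A lower transcript level of the target was thus not seen in the libraries labelled Atg5-KD, which goes against that label as far as the transcript can show it. Fold changes are read as Atg5-KD over control because the table's name puts the groups in that sequence, and every direction below rests on it. Reads assigned to genes were about 17300000 per library on average for control cells and about 12200000 for those labelled Atg5-KD. Both were estimated from the table, which does not count unassigned reads. Rn45s, the ribosomal RNA precursor, made up an estimated 1.17% of the normalized counts of control and 17.9% of those of Atg5-KD. Interferon response genes were higher in 20 of 20 cases in the authors' deposited table, with a median log2 fold change of 4.83. Over all tested genes 10.4% were higher and 10.5% lower. Usp18, Oasl2, Ddx58 and Irf7, named for their small adjusted p, stood between 3.12 and 5.89, while Bst2 stood at 0.54 and Ifit2 at 1.12. The list was chosen with earlier results of these data known, so its count is not an independent test. Among granulosa markers Inha, Inhba and Gja1 were abundant, while Amh and Cyp19a1 had base means of 6.07 and 2.34 in the authors' deposited table. Of 15 granulosa and cumulus markers, all 15 had a base mean above 0. Their summed estimated level was 120660 normalized counts with control and 108768 with Atg5-KD. Of the control sum, Gja1 held 42021, Inha 31530 and Inhba 20623, so the sums say little about the other markers. Among the 14 tested, 2 were higher and 6 lower. The largest falls in log2 fold change were Slc38a3 at -2.19, Inhbb at -1.14 and Serpine2 at -0.89. The 2 higher were Nr5a2 at 0.62 and Inhba at 0.45. Among markers of other cells, the summed level of 17 leukocyte markers went from 2502 to 687, with 10 of 16 tested lower. That of 11 theca and stroma markers went from 9381 to 5530, with 8 of 10 tested lower. That of 10 smooth muscle and pericyte markers went from 12600 to 5833, with 7 of 9 tested lower and 1 higher. Lyz2 (base mean 906) weighs most in the leukocyte sum, and Acta2 (4426) and Tagln (2808) in the smooth muscle and pericyte sum. Median log2 fold changes of the tested markers in these 3 lists were -1.47, -0.80 and -1.09. For 10 endothelial markers the sums were 298 and 260, and for 12 oocyte markers 81.0 and 94.8. Of these, 8 endothelial and 7 oocyte markers were tested and 0 were called in either list. Figla, an oocyte factor, stood at 0. The sums are low, so the lack of calls does not show that these markers were unchanged. The part of these other cells in the values below was not tested, and fewer cells of a type cannot be told apart from less RNA per cell.

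Of the 9 genes, the carrier subunit gene Mpc2 was higher in the libraries labelled Atg5-KD, and the kinase gene Pdk2 and the phosphatase gene Pdp1 were lower. Of all genes tested in the authors' deposited table, 10.4% were called higher and 10.5% lower, 20.9% in all, and among the 7266 genes whose base mean lies within the range of the 9 genes 23.3% were called. A count of 3 in 9 is close to that background for a set of this size. A gene was called when the adjusted p of the authors' Wald test, adjusted by Benjamini-Hochberg over all tested genes, was under 0.05. In the authors' deposited table the 9 genes had a median log2 fold change of -0.17, against 0.00417 for all tested genes. The base mean, the mean over all 6 libraries of counts divided by size factors, ran from 165 for Mpc1 to 1483 for Dlat in the authors' deposited table. The E1 and E2 genes had the highest base means and the smallest fold changes of the set, and the carrier and regulator genes were scarcer.

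**Figure D1:**
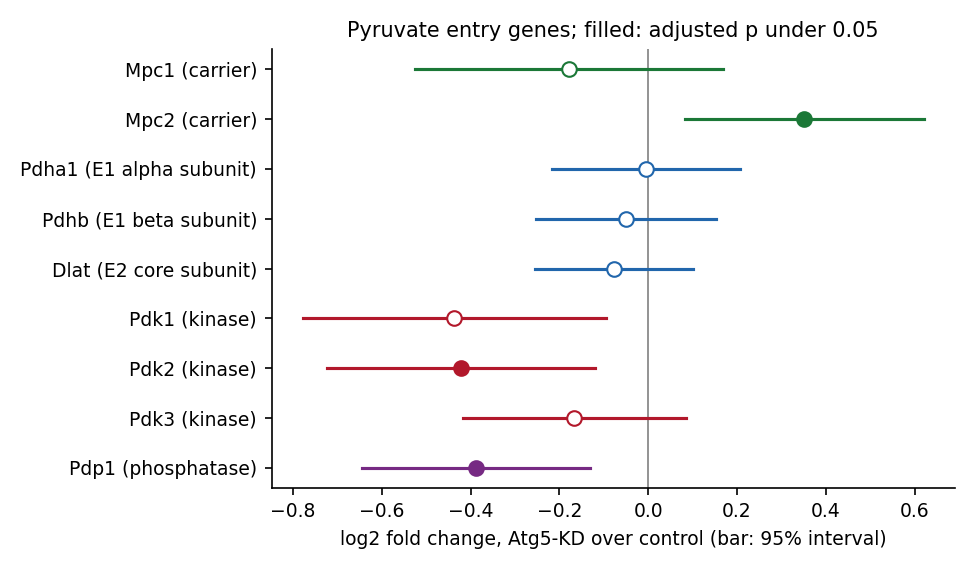
Log2 fold change (x axis) of the 9 genes (y axis, with their roles), with bars for the 95% interval and filled points for an adjusted p under 0.05. The 3 subunit genes of the enzyme lie between -0.08 and 0, Mpc2 lies at 0.35, and Pdk1, Pdk2 and Pdp1 lie between -0.44 and -0.39, Pdk1 being just short of the threshold.

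Mpc2 rose and its partner Mpc1 did not pass the test. The products of both genes are needed together, since the carrier is a heterodimer. Estimated group means of Mpc2 were 477 normalized counts with control and 609 with Atg5-KD. In the authors' deposited table the log2 fold change of Mpc2 came to 0.35 ± 0.14 (SE), a 1.28-fold rise with a 95% interval from 5.95% to 53.8% (Wald adjusted p = 0.0491). This has the highest adjusted p of the 3 calls and lies just under the threshold. Under other settings described further on, the call was often lost. Wald adjusted p was 0.0635 without the low-count filter, 0.788 scaled to all reads and 0.331 with the GC and length trend removed. The call held with the median of genes set to 0 (0.0435) and with the trend taken from protein-coding transcripts (0.0126). For Mpc1 the estimated group means were 175 and 154 normalized counts. In the authors' deposited table its log2 fold change came to -0.18 ± 0.18 (SE; Wald adjusted p = 0.536), with a 95% interval from a fall of 30.5% to a rise of 12.4%. The point estimates of the subunits thus have opposite signs, but the intervals, from -0.52 to 0.17 for Mpc1 and from 0.08 to 0.62 for Mpc2 on the log2 scale, overlap, and their difference was not tested because the table gives no values per library. The Mpc2 to Mpc1 ratio of estimated levels per kilobase of protein-coding transcript was 1.94 with control and 2.80 with Atg5-KD. With the length of all merged exons in its place the ratio was 0.775 and 1.12, so which subunit transcript is the more abundant depends on the length used. Length cancels in the change of the ratio, which restates the 2 fold changes.

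The 250 bases upstream of the RefSeq starts of Mpc1 and Mpc2 are shown because the subunits work as a pair and their point estimates differ in sign. Mpc1 lies on chromosome 17 from 8283787 to 8297667 and Mpc2 on chromosome 1 from 165461260 to 165481218 in the RefSeq table, whose build is GRCm38.p6, and mm10, which the submitters' processing notes name, is the same assembly. In the GENCODE M21 annotation the genes start earlier, at 8282904 for Mpc1 and 165460637 for Mpc2. Both windows thus lie inside the genes as annotated there, and are upstream only of the RefSeq starts. The windows are chr17:8283537-8283786 and chr1:165461010-165461259, both on the plus strand, and capitals mark matches to the CCAAT box (CCAAT, or ATTGG on the other strand) and the GC box (GGGCGG, or CCGCCC).
Mpc1: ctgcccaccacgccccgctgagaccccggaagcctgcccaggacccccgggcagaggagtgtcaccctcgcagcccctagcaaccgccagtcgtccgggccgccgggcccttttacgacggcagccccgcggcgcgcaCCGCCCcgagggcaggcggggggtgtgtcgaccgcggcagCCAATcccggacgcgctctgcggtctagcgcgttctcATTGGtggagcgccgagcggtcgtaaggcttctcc
Mpc2: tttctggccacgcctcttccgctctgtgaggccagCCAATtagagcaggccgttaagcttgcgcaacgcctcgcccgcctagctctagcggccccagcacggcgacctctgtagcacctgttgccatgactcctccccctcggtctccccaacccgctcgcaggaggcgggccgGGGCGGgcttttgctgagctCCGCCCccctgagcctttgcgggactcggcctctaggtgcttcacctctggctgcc
The window of Mpc1 holds 2 CCAAT boxes and 1 GC box, and that of Mpc2 holds 1 CCAAT box and 2 GC boxes. Over all 32851 promoter windows of this length, 33.8% hold a CCAAT box and 32.7% a GC box on either strand. Both windows are rich in CpG, with 32 in Mpc1 and 19 in Mpc2 against a median of 6 over all windows. Both motifs were chosen after the sequences were seen. These matches describe the letters only, and neither motif sets the pair apart.

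No core subunit gene of the enzyme passed the test. Pdha1 encodes the E1 alpha subunit that carries the regulatory phosphorylation sites, Pdhb its E1 beta partner and Dlat the lipoyl-bearing E2 core on which the complex is built. Estimated means of Pdha1 were 1292 normalized counts with control and 1288 with Atg5-KD. The log2 fold change given by the authors' deposited table came to -0.0046 ± 0.11 (SE; Wald adjusted p = 0.984), and the 95% interval ran from a fall of 13.9% to a rise of 15.4%. Estimated means of Pdhb were 1298 and 1254, and the authors' deposited table gave it a log2 fold change of -0.05 ± 0.10 (SE; Wald adjusted p = 0.801) and an interval from a fall of 16.1% to a rise of 11.1%. Estimated means of Dlat were 1522 and 1443, and the authors' deposited table gave it a log2 fold change of -0.08 ± 0.09 (SE; Wald adjusted p = 0.619) and an interval from a fall of 16.2% to a rise of 7.33%. The smallest fall that would have been called at the standard error of each gene was 17.4% for Pdha1, 16.8% for Pdhb and 15.0% for Dlat. The level of Pdha1 was 0.529 times that of Pdhb per kilobase of protein-coding transcript with control and 0.546 times with Atg5-KD, and 1.03 and 1.06 times with merged exon length.

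Pdha1 lies on chromosome X from 160122219 to 160138430, Pdhb on chromosome 14 from 8165991 to 8173303 and Dlat on chromosome 9 from 50634633 to 50659780. Pdha2, the intronless autosomal copy used in the testis, had a base mean of 0 in the authors' deposited table, so no counts were assigned to it. In the GENCODE M21 annotation the exons of Pdha1 share 603 bases with Map3k15 on the opposite strand, and those of Mpc1 share 480 bases with 4930506C21Rik, also on the opposite strand. The sources used here do not say whether counting used strand, so reads of those stretches may belong to either gene. The base means of these neighbours in the authors' deposited table were 57.2 for Map3k15 and 9.06 for 4930506C21Rik, and neither passed the test. Mpc1 also has an annotated processed pseudogene, Mpc1-ps, and whether reads were shared with it was not tested.

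**Figure D2:**
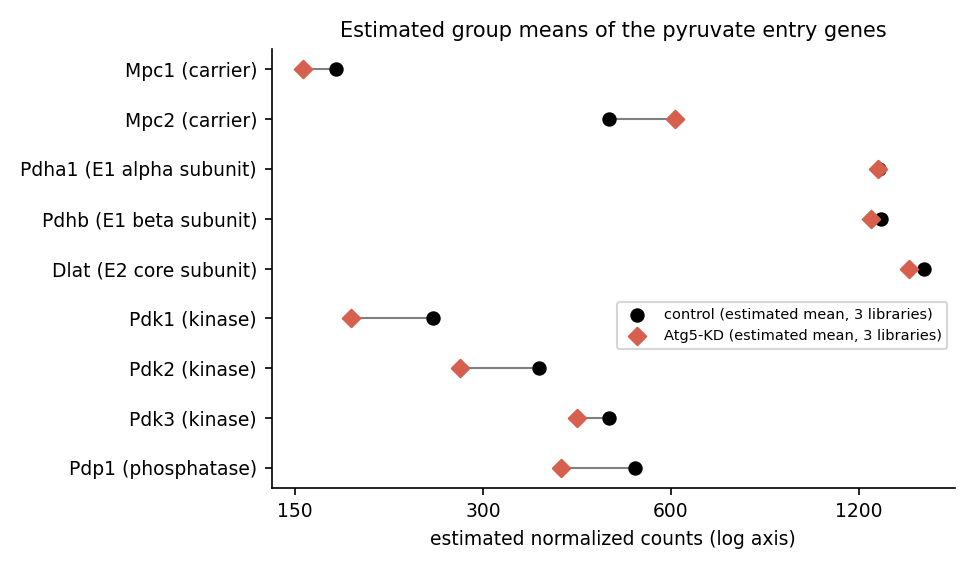
Estimated group means in normalized counts (x axis, log scale) of the 9 genes (y axis), with black circles for control and red diamonds for Atg5-KD, each for 3 libraries. The means were derived from the deposited base mean and fold change, carry no error bar because the table has no values per library, and lie almost on each other for Pdha1 at 1292 and 1288.

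Pdk2 fell among the kinase genes, and Pdk1 had a fold change of similar size without passing the test. The pyruvate dehydrogenase kinases are isoenzymes that shut the complex by phosphorylating E1 alpha. Estimated means of Pdk2, the broadly expressed isoenzyme, were 368 normalized counts with control and 275 with Atg5-KD. In the authors' deposited table its log2 fold change came to -0.42 ± 0.15 (SE; Wald adjusted p = 0.0337), a fall of 25.3% with a 95% interval from 7.90% to 39.4%. The call was lost when the trend of fold change with GC content and length, described further on, was removed, at -0.22 (adjusted p = 0.434) or -0.26 (adjusted p = 0.293) by the transcripts used. Pdk1, an isoenzyme known to be induced in low oxygen, had estimated means of 250 and 184. The log2 fold change given by the authors' deposited table came to -0.44 ± 0.17 (SE; Wald adjusted p = 0.0558). The raw p of Pdk1 in the authors' deposited table was 0.0121, where the highest p called was 0.0104. Pdk1 thus lies just outside the threshold and Mpc2, with a raw p of 0.0102 in the authors' deposited table, just inside it. For Pdk3 the estimated means were 477 and 425, and the authors' deposited table gave it a log2 fold change of -0.17 ± 0.13 (SE; Wald adjusted p = 0.397) and an interval from a fall of 25.1% to a rise of 6.04%. The intervals of all 3 kinases overlap, and differences among them were not tested.

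Among the kinases, transcript levels per kilobase of protein-coding transcript were ordered Pdk3, Pdk2 and Pdk1 in both groups, at 225, 164 and 48.1 normalized counts per kilobase with control and 201, 123 and 35.6 with Atg5-KD. The table gives no spread for these levels, so whether neighbours in the order differ was not tested. Pdk4, the isoenzyme induced by fasting, is not among the 9 genes and was the most abundant kinase transcript per kilobase, at 531 and 501. The authors' deposited table gave Pdk4 a log2 fold change of -0.08 ± 0.12 (SE; Wald adjusted p = 0.705). Summed over these 4 kinases the level was 969 normalized counts per kilobase with control and 860 with Atg5-KD. Pdk4 made up 54.8% and 58.3% of that sum, Pdk2 16.9% and 14.3%, and Pdk1 4.97% and 4.13%. The order of the 4 was the same with merged exon length.

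The promoter window of Pdk2 is shown because it is the called kinase. Pdk2 lies on chromosome 11 from 95026258 to 95041371, and the window chr11:95041372-95041621 is given on the minus strand, 5′ to 3′, with capitals for the E-box (CACGTG, the same on both strands) and for CCAAT boxes.
Pdk2: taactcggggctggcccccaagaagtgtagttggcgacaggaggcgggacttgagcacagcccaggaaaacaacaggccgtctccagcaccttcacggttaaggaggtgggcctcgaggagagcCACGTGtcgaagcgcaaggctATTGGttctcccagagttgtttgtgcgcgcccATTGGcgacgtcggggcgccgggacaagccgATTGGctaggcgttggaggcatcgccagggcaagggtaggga
It holds 1 E-box, a motif found in 6.02% of all windows, and 3 CCAAT boxes. The hypoxia motif (ACGTG, or CACGT on the other strand), which overlaps the E-box, is found in 16.6% of all windows and in 3 of the 8 genes of the set with an entry, Pdk2, Pdk3 and Pdhb. The estrogen-related receptor motif (AAGGTCA, or TGACCTT) is found in 4.08% of all windows and in 0 of the 8. Pdk1 lies on chromosome 2 from 71873215 to 71903858 and Pdk3 on chromosome X from 93764616 to 93832150. These windows bear no measured binding, and no match says only that the letters are not in this window.

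Pdp1, the gene of the calcium-responsive phosphatase that reactivates the complex, fell. Its estimated means were 525 normalized counts with control and 401 with Atg5-KD. In the authors' deposited table its log2 fold change came to -0.39 ± 0.13 (SE; Wald adjusted p = 0.0186), a fall of 23.6% with a 95% interval from 8.75% to 36.1%. Pdp1, on chromosome 4 from 11958183 to 11966450, had the smallest adjusted p of the 9 genes. Pdp2, the second phosphatase gene and not one of the 9, had estimated means of 201 and 261, and the authors' deposited table gave it a log2 fold change of 0.37 ± 0.19 (SE; Wald adjusted p = 0.161). Per kilobase of protein-coding transcript, Pdp1 made up 84.5% of the summed level of both phosphatases with control and 76.3% with Atg5-KD. With merged exon length these shares were 76.7% and 66.0%.

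Fold changes across all genes followed the GC content of the transcript, and the 9 genes differ in it. Among tested genes with a base mean of at least 50, the median log2 fold change was 0.24 for transcripts with 35 to 40% GC and fell through every 5-point bin to -0.29 for those with 60 to 65%. The longest transcript of Pdk2 has 56.9% GC, that of Pdp1 39.2% and those of the other 7 genes from 43.2% to 48.0%. Pdk2 therefore fell where genes of its GC content tended to fall, and Pdp1 fell where genes of its GC content tended to rise. With the smooth trend in GC content and transcript length removed, Pdp1 stood at -0.61 (adjusted p = 7.75e-05, by Benjamini-Hochberg from a Wald statistic moved by the trend) and Pdk1 became a call at -0.55 (adjusted p = 0.0163). Pdk2 was then no longer called, at -0.22 (adjusted p = 0.434). Mpc2 was not called either, at 0.22 (adjusted p = 0.331). When GC content and length were averaged over the protein-coding transcripts of each gene, an alternative added after seeing the data, Mpc2 was called at 0.44 (adjusted p = 0.0126). Its only protein-coding transcript has 1025 bases and 53.3% GC, where its longest transcript has 4015 bases and 43.2%, and the parts of GC content and length were not tested apart. Pdk2 was again not called, at -0.26 (adjusted p = 0.293). Pdp1 was called with the trend left in and under both ways of removing it, with -0.57 (adjusted p = 0.000282) by the second. It was not called under Benjamini-Yekutieli adjustment (adjusted p = 0.189), nor was any other of the 9 genes. With the trend removed 6.13% of tested genes were higher and 7.60% lower (13.7% in all), and with protein-coding transcripts 6.63% and 7.80% (14.4%).

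**Figure D3:**
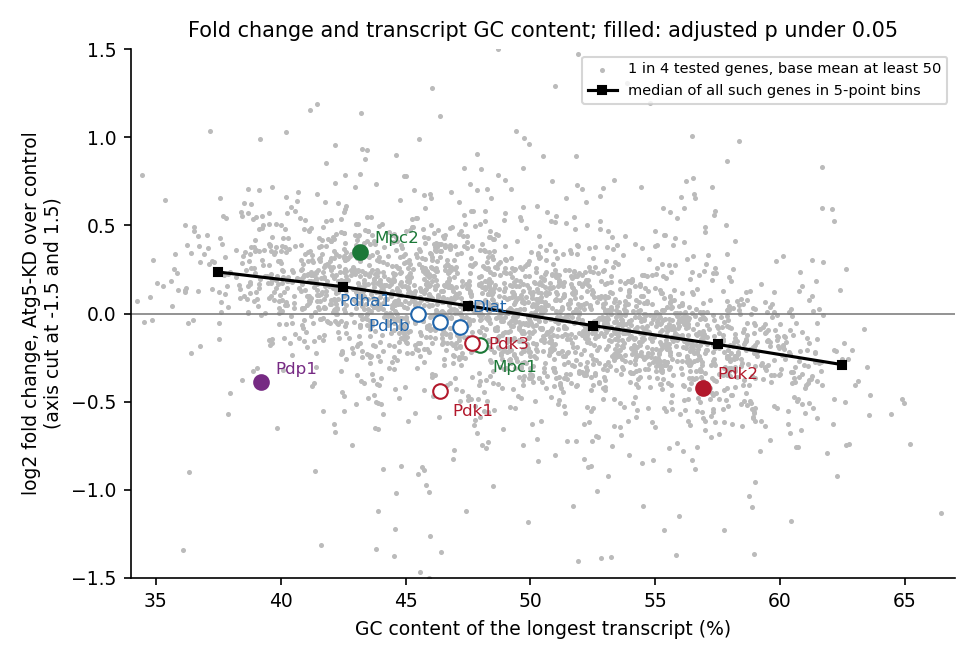
Log2 fold change (y axis, cut at -1.5 and 1.5) against GC content of the longest transcript in percent (x axis), for 1 in 4 tested genes with a base mean of at least 50 (grey), the medians in 5-point bins (black squares) and the 9 genes (coloured by role, filled when called). The line of medians runs from 0.24 to -0.29, Pdk2 lies at 56.9% GC near the falling end, and Pdp1 lies well under the line at 39.2% GC.

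The scale of the comparison also moved the calls. One scale was set by the estimated total of reads assigned to genes, Rn45s included. Every log2 fold change then shifted by -0.30 and the median of all tested genes became -0.29. On that scale 38.7% of tested genes were called lower and 3.60% higher, 42.3% in all. Of the 9 genes 8 were then called lower, with log2 fold changes from -0.74 for Pdk1 to -0.30 for Pdha1, and Mpc2 stood at 0.05 (adjusted p = 0.788). Relative to the shifted median the genes keep their places. When the total was taken without Rn45s, an alternative added after seeing the data, the shift was -0.03, Mpc2 was not called at 0.32 (adjusted p = 0.0790) and Pdk1 was called at -0.47 (adjusted p = 0.0363), where 9.24% of tested genes were higher and 12.2% lower (21.5%). With the median of genes set to 0 the calls among the 9 genes were those as deposited, beside 10.7% higher and 10.2% lower. Without the filter on low counts Mpc2 lost its call (adjusted p = 0.0635), beside 7.57% higher and 7.54% lower (15.1%). Benjamini-Yekutieli adjustment called 5.86% higher and 5.90% lower (11.8%), and an adjusted p under 0.01 called 6.92% and 6.94% (13.9%), in both cases with 0 of the 9 genes.

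**Figure D4:**
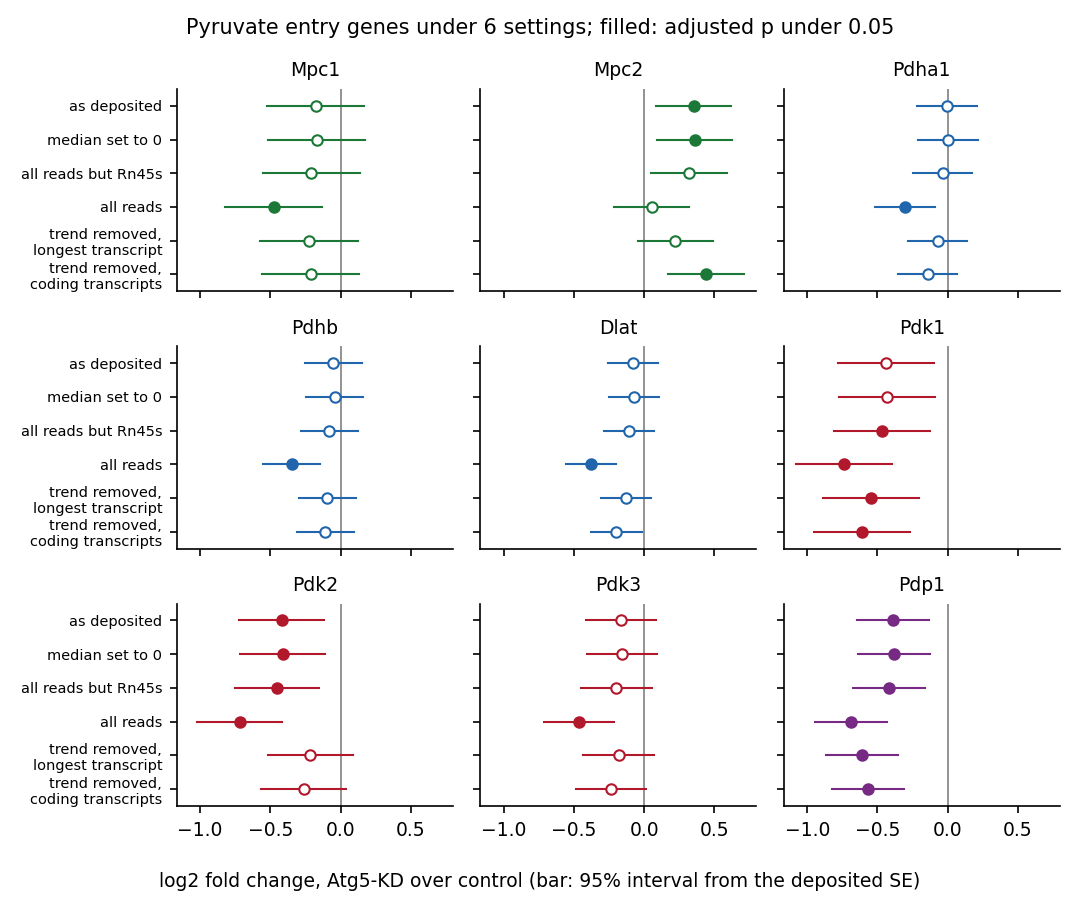
Log2 fold change (x axis) of each of the 9 genes under 6 settings (y axis), with 95% intervals from the deposited standard error and filled points for an adjusted p under 0.05. Pdp1 is filled under all 6 settings shown, the 3 subunit genes only where all reads set the scale, and Mpc2, Pdk1 and Pdk2 change their call between settings.

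The precision behind these values was set by more than counting. Estimated reads summed over the libraries of a group ran from 695 with control and 354 with Atg5-KD for Mpc1 to 6055 and 3306 for Dlat. Counting error alone would give a standard error of the log2 fold change of 0.09 for Mpc1 and 0.03 for Dlat, against 0.18 and 0.09 in the authors' deposited table. For Mpc1 a fall of less than 27.0% could not have been called at its standard error.

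The other parts of the pyruvate dehydrogenase complex and its regulators were not called, with 0 of 5 past the test in the authors' deposited table. The counts of this list and of those below stand beside 10.4% higher and 10.5% lower over all tested genes. With the GC and length trend removed these shares were 6.13% and 7.60%. Whether any list departed from such shares was not tested. Dld, the E3 subunit, stood at 0.08 ± 0.10 (SE) in the authors' deposited table. Cofactor genes held a few calls. E2 carries lipoate, and of 14 tested genes for lipoate synthesis and attachment 2 were lower and 0 higher by the authors' deposited table, and 1 was lower with the GC trend removed. Lipt2, the transferase that starts lipoate assembly, fell 2.13-fold (log2 fold change -1.09 ± 0.20 (SE), Wald adjusted p = 1.87e-06) in the authors' deposited table. Glrx5, which helps pass on iron-sulfur clusters, stood at -0.29 ± 0.11 (SE) as the authors' deposited table has it (Wald adjusted p = 0.0453). E1 uses thiamine pyrophosphate, and of 4 genes that supply it 1 was higher by the authors' deposited table, the thiamine transporter Slc19a2 at 0.43 ± 0.12 (SE; Wald adjusted p = 0.00388).

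Steps that feed pyruvate or draw on it held calls in both directions. Of 10 genes of pyruvate and lactate supply in the cytosol, 3 were lower and 1 higher by the authors' deposited table, with a median log2 fold change of -0.24. Ldhb, the lactate dehydrogenase subunit of oxidative tissues, fell 1.43-fold, Bsg, the chaperone of lactate transporters, 1.20-fold and Pkm, the pyruvate kinase, 1.20-fold in the authors' deposited table, while Me1, the cytosolic malic enzyme, rose 1.83-fold. Of 9 genes for other mitochondrial steps at pyruvate and acetyl-CoA, 3 were lower and 0 higher by the authors' deposited table, with a median of -0.13. These were the mitochondrial malic enzymes Me3, at -0.64 ± 0.13 (SE), and Me2, at -0.43 ± 0.10 (SE), and Pck2, the mitochondrial enzyme that makes phosphoenolpyruvate, at -0.42 ± 0.09 (SE) in the authors' deposited table. With the GC trend removed these 9 genes again gave 3 lower and 0 higher calls, and the 10 cytosolic genes gave 2 and 1. Scaled to all reads, where 38.7% of tested genes were lower and 3.60% higher, 7 genes of each of these lists were lower, and 1 cytosolic gene was higher.

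Other membrane steps gave mixed values. Of 7 outer membrane channel and import genes, Tomm40 was lower at -0.31 ± 0.11 (SE) and Tomm70a higher at 0.25 ± 0.09 (SE) in the authors' deposited table, and 0 were called with the trend removed. Over all tested genes 10.5% were lower. Of 12 other inner membrane carriers 4 were lower and 0 higher by the authors' deposited table, with a median of -0.18. They were Slc25a42, the coenzyme A carrier, at -0.78 ± 0.15 (SE), the dicarboxylate carrier Slc25a10 at -0.45 ± 0.12 (SE), the oxoglutarate carrier Slc25a11 at -0.40 ± 0.11 (SE) and the ADP/ATP carrier Slc25a4 at -0.24 ± 0.09 (SE) in the authors' deposited table. With the trend removed 1 of these 12 was lower. Among 9 genes of the sister 2-oxoacid dehydrogenase complexes, which share the E3 subunit, Bckdha, the E1 alpha of the branched-chain complex, was lower at -0.45 ± 0.10 (SE) in the authors' deposited table and 0 were called with the trend removed.

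Hypoxia-inducible genes, a group to which Pdk1 belongs, held calls in both directions as deposited. Of 19 such genes 2 were higher and 3 lower by the authors' deposited table, with a median of -0.06, beside 20.9% called over all tested genes. With the GC trend removed 1 was higher and 2 lower. Scaled to all reads 0 were higher and 8 lower, where 38.7% of all tested genes were lower. The higher ones in the authors' deposited table were Hif1a, at 0.30 ± 0.08 (SE), and the demethylase Kdm3a, at 0.38 ± 0.11 (SE). Hif1a is the oxygen-regulated factor itself, and without it Kdm3a was the only higher call of the list. The lower ones as deposited were P4ha1, a collagen hydroxylase, at -0.43 ± 0.09 (SE), the glucose transporter Slc2a1 at -0.38 ± 0.11 (SE) and Ndrg1 at -0.61 ± 0.19 (SE). Ndrg1 and Pdp2 fall outside the naming rule and were named after their values were seen. Of 11 tested nuclear receptor and coactivator genes, Foxo1, a factor known to act on Pdk4, fell 1.97-fold and Pparg 1.41-fold, while Gabpa, an activator of mitochondrial genes, rose 1.29-fold in the authors' deposited table.

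**Figure D5:**
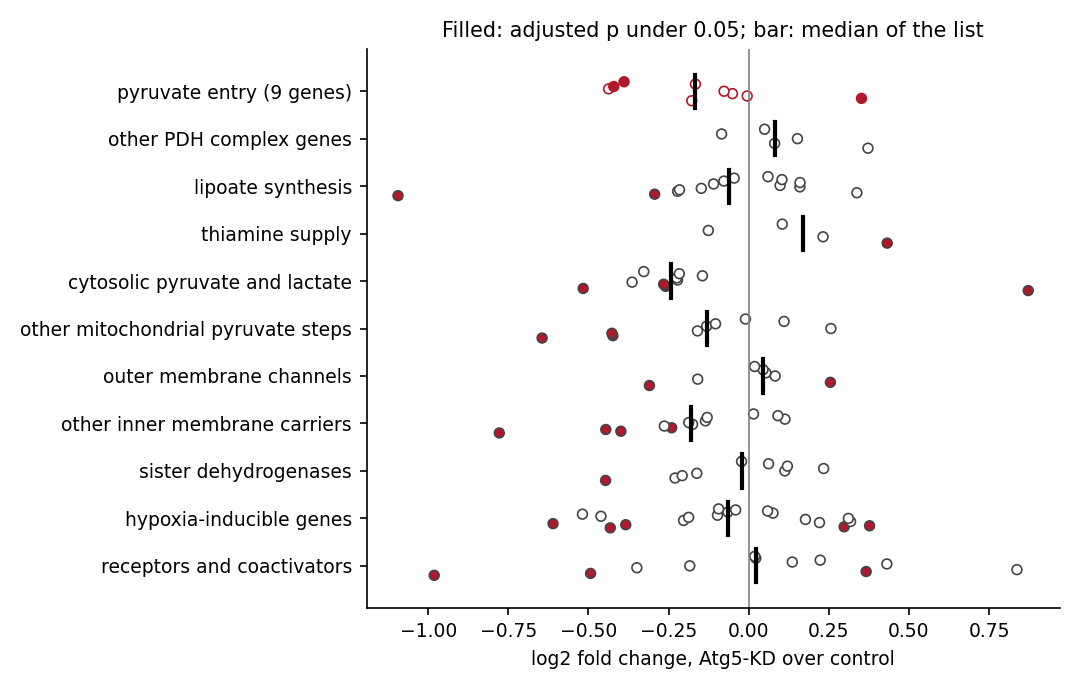
Log2 fold change (x axis) of the 9 genes and of the tested genes of 10 related lists (y axis), with filled points for an adjusted p under 0.05 and a bar for each list's median. The medians lie between -0.24 for cytosolic pyruvate and lactate genes and 0.17 for thiamine supply, and that of the 9 genes lies at -0.17.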

How the data were processed

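Poly(A) RNA of 6 libraries, 3 of control and 3 of Atg5-KD, numbered 2 to 4 in each group, was compared. The submitters' processing notes list DESeq2 1.30.1, StringTie 2.1.4, featureCounts 1.6.2, STAR and mm10 without saying what each did. Per the file headers, the deposited table is a DESeq2 comparison. Its base mean is a signal value, the mean of size-factor normalized counts, made by the authors. The authors gave fold changes with standard errors in log2 units. The deposited Wald score and the deposited p-value, raw and adjusted, complete each row. At a tolerance of 1e-06, 0 rows departed from the relations between these columns.

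From them, group means were estimated from base mean and fold change, and size factors (0.703 to 0.805 for the libraries labelled Atg5-KD, 1.27 to 1.37 for control) from genes with a single read. Adjusted p-values were recomputed under 6 planned and 2 added alternatives with scipy 1.17.1, and trends in GC content and length (GENCODE M21, values for 14680 of 14835 tested genes and all 9 members) were fitted by lowess with a fraction of 0.3 in statsmodels 0.14.6, tested on simulated data. Promoter sequences are from RefSeq, GRCm38.p6, with entries for 8 of 9 genes and none for Pdp1. Named genes are the 9 genes, up to 4 called genes with the smallest adjusted p in each related list, the 2 most abundant where none was called, and Atg5. Outside this rule, Ndrg1, Pdp2 and the interferon response genes Bst2 and Ifit2 were named after their values were seen. So were the cell markers Inha, Inhba, Gja1, Amh, Cyp19a1, Slc38a3, Inhbb, Serpine2, Nr5a2, Lyz2, Acta2, Tagln and Figla. Rn45s and the overlapping or related genes 4930506C21Rik, Map3k15, Pdha2 and Mpc1-ps were named for their bearing on the values. Members and lists were chosen with earlier results of these data known. The planned comparison of protein sequences was not made here.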

Additional observations from a re-analysis of the deposited data

How the results depend on the processing

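No paired analysis was possible because the table holds no values per library, and for the same reason no library could be left out. Pdk3, Mpc1 and the 3 subunit genes were not called under any alternative except the scaling to all reads. The direction of every gene but Pdha1 held under all 8 alternatives. With the median of genes set to 0, Pdha1 went from -0.0046 to 0.0028 and so changed sign. Without the low-count filter Mpc2 at 0.35 was not called (0 higher). With Benjamini-Yekutieli adjustment, and with adjusted p under 0.01, Mpc2 at 0.35, Pdk2 at -0.42 and Pdp1 at -0.39 were not called (0 higher, 0 lower). Scaled to all reads, 8 were lower and 0 higher, with Mpc1 at -0.48, Pdha1 at -0.30, Pdhb at -0.35, Dlat at -0.38, Pdk1 at -0.74 and Pdk3 at -0.47 newly called and Mpc2 at 0.053 lost. Scaled to all reads but Rn45s, Mpc2 at 0.32 was lost (0 higher) and Pdk1 at -0.47 gained. After removal of the GC and length trend, Mpc2 at 0.22 and Pdk2 at -0.22 were lost (0 higher) and Pdk1 at -0.55 gained, and with protein-coding transcripts Pdk2 at -0.26 was lost and Pdk1 at -0.61 gained. The cause of these changes was not tested, apart from what each construction sets: more genes in the adjustment, a stricter rule or a constant shift. The 8 alternatives moved between 1 and 16 of the 34 list counts, by over 1.5 times or to or from 0, most under the scaling to all reads. Calls across all genes went from 3100 to 1745 with Benjamini-Yekutieli adjustment, 2056 at the stricter threshold, 2015 and 1987 with the trend removed, and 6269 scaled to all reads, where the split changed from 1541 higher and 1559 lower to 534 and 5735. Estimated counting error alone was smaller than the deposited standard error for each of the 9 genes.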
